A study of Homo sapiens with 8 samples.

Results

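The genes described here are 36 nucleolar and growth genes that are widely used as MYC targets: factors that make and modify ribosomal RNA, subunits of RNA polymerase I, assembly factors of both ribosomal subunits, and enzymes that supply polyamines and nucleotides. They were taken by symbol from a list, and all 36 were found among the 18133 rows of the expression table. All 36 also passed the filter on low values, which left 13885 genes for testing.

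The cells were DND41, an established line of human T-cell acute lymphoblastic leukemia. All groups grew in RPMI with 10% serum and received doxycycline for 72 h, which switched on a short hairpin RNA. The hairpin was directed against SIRT1, a nuclear NAD-dependent deacetylase, in the groups sh1 and sh3, which have libraries A, B and C, 3 in each, and was a control hairpin in the remaining group with 2 libraries (A and C). The labels do not explain the numbers in these names, and control B was not analysed here. The knockdown was made in a single cell line. The labels do not tell whether the libraries of a group came from separate infections, so the p-values reflect only the spread among these samples, which could be technical.

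Ribosomes are built in the nucleolus. RNA polymerase I transcribes a long ribosomal RNA precursor there, small nucleolar RNA (snoRNA) particles guide its methylation and pseudouridylation, and large sets of assembly factors cut, fold and export the subunits. MYC drives many of these genes together with polyamine and nucleotide synthesis through E-box sites near their starts, and in T-cell leukemia MYC itself is a well-known target of NOTCH1.

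The values were normalized counts, deposited by the submitters, and summed to 33087819.7 to 34072666 per library. SIRT1 had normalized counts of 1259, 1312 and 1328 with sh1, 1099, 1217 and 1179 with sh3, and 1745 and 1919.5 in the controls. All libraries with a SIRT1 hairpin lay below both controls, and the log2 fold change was -0.49 ± 0.070 with sh1 and -0.65 ± 0.070 with sh3 (SE; limma adjusted p = 0.0029 and 0.00014); without control C the sh1 value was -0.43 (adjusted p = 0.051). MYC had normalized counts of 10742, 10072 and 10811 with sh1, 9334, 10426 and 10998 with sh3, and 12185 and 14681 in the controls. MYC also lay below both controls in all 6 libraries, with -0.37 ± 0.074, adjusted p = 0.0093 for the mean of both hairpins on the log2 scale, and with control C left out its value was -0.23 (adjusted p = 0.16). The library sh3 C is placed with sh3 by its title and genotype and with the control hairpin by its description. It correlated best with another sh3 library (Spearman 0.996 across genes) and at most at 0.992 with a control, and it was kept with sh3. Of 9 T-lineage markers 7 were found, CD3 chains among them, and their summed level was 63486 to 66256 with sh1, 55431 to 56179 with sh3 and 75493 to 79024 in the controls; the markers CD5 and PTCRA were not analysed here. The 4 B-lineage markers found summed to 18021 to 19709 with sh1, 24070 to 25479 with sh3 and 24454 to 26205 in the controls. Among them PAX5 was under a mean of 10, as were all the myeloid and erythroid markers found. The myeloid markers summed to 7.41 to 31.7 with sh1, 16.5 to 21.3 with sh3 and 26.5 to 34.01 in the controls. The erythroid markers summed to 10.5 to 16.8 with sh1, 14.5 to 21.4 with sh3 and 11.5 to 24.5 in the controls. The 6 markers of adherent cells summed to 1831 to 1962 with sh1, 2041 to 2431 with sh3 and 2499.6 to 2635 in the controls. Of these, COL1A1, COL1A2, KRT18 and EPCAM were under a mean of 10, so the sum came almost wholly from KRT8 and PDGFRB. The part of these shifts in the results below was not tested. In bulk RNA, fewer cells of a kind and less RNA per cell cannot be told apart.

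SIRT1 knockdown went with small decreases in a minority of the 36 genes. Averaged over both hairpins and compared with control, NOP56, DKC1, NOLC1, NIP7 and SRM fell and NME1 rose, and the other 30 genes did not pass the test. These 6 genes were 16.7% of the 36, beside 12.7% of all genes tested that were called in that comparison (6.19% lower and 6.55% higher). A gene is called here at a limma adjusted p under 0.05, with the adjustment over all 13885 genes. The called decreases were between -0.15 for DKC1 and -0.26 for SRM on the log2 scale, so that DKC1 fell by 9.73% and SRM fell by 16.2%. The median log2 fold change of the 36 genes was -0.10 with 30 of 36 values below 0, beside a median of -0.0022 and 7013 of 13885 values below 0 over all genes tested.

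The counts of calls differed between the hairpins, while the direct comparison of sh1 with sh3, given further on, called NOLC1 alone. With sh3, 9 of the 36 genes fell (NOP56, NOP58, DKC1, NOLC1, POLR1B, NOP16, NIP7, RRP1B and SRM) and NME1 rose, which is 27.8% of the 36 beside 18.6% of all genes tested (9.19% lower and 9.36% higher). With sh1, 0 genes were called in either direction by limma, beside 6.31% of all genes tested (2.88% higher and 3.43% lower). At an unadjusted p under 0.05 there were 7 with sh1, 6 of them lower, where 22.3% of all genes tested passed, and 17 with sh3, 16 of them lower, where 32.4% passed. The median of the 36 was -0.083 with sh1 (28 values below 0) and -0.14 with sh3 (33 values below 0). Both comparisons use the same 2 control libraries, so these values are not independent of each other. In the means of log2 values, 22 of the 36 genes had sh3 lowest, sh1 between and control highest, an order found in 21.8% of all genes tested.

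**Figure D1:**
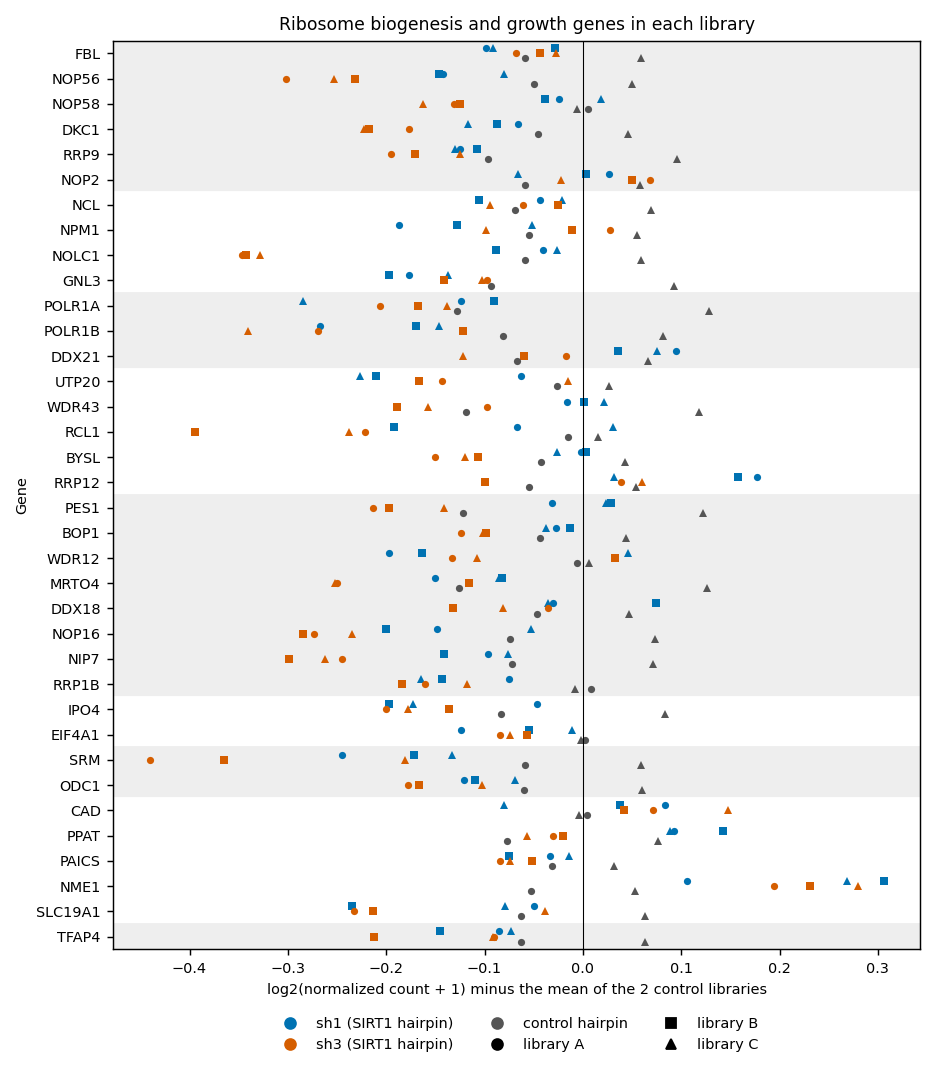
Level of each of the 36 genes in each library, as log2(normalized count + 1) minus the mean of the 2 control libraries; genes are ordered by role (shaded bands), colour gives the group and marker shape the library letter. Most sh3 points lie left of 0, NME1 lies to the right in all 6 knockdown libraries, and control C (grey triangle) lies right of control A (grey circle) in 32 of 36 genes.

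The control libraries differed from each other in these genes. Control C was above control A in 32 of the 36, with a median difference of 0.12 on the log2 scale, while 52.9% of all genes tested were higher in control C, with a median difference of 0.011. The 36 genes together made up 0.912%, 0.899% and 0.925% of the normalized counts with sh1, 0.897%, 0.902% and 0.894% with sh3, and 0.916% in control A and 0.970% in control C. The sh1 libraries thus lay on both sides of control A, all sh3 libraries lay below both controls, and control C was the highest of the 8. In 24 of the 36 genes the highest value of all libraries was in control C. This comparison of the controls was chosen after the values had been seen.

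Of the calls of the 36 genes against control, only that of NOLC1 with sh3 was kept whichever control was left out. Without control C, 0 of the 36 genes were called over both hairpins and the median was -0.048 with 26 values below 0. Without control A, 6 were called lower, of which NOP56, NOLC1 and NIP7 were among the original 5 and GNL3, POLR1A and MRTO4 were not, and the median was -0.17 with 33 values below 0. The called genes over all 13885 numbered 339 without control C and 953 without control A, against 1768 with both. With sh3, the median of the 36 was -0.068 with 27 values below 0 without control C, and -0.18 with 34 values below 0 without control A. The calls of DKC1, SRM and NME1 over both hairpins and of NOP58, RRP1B and NME1 with sh3 were lost whichever control was left out. For 2 of these the fold change hardly moved: without control A and without control C, the sh3 log2 fold change was -0.13 and -0.15 for NOP58 (adjusted p = 0.14 and 0.15) and -0.15 and -0.16 for RRP1B (adjusted p = 0.16 in each). The median with sh1 was -0.029 without control C and -0.12 without control A.

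Over 17 alternative analyses, the calls over both hairpins were kept in 15 for NOP56 and NOLC1, 12 for NME1, 11 for SRM, 10 for NIP7 and 8 for DKC1. Over 18 alternatives, the calls with sh3 were kept in 18 for NOLC1, 17 for NOP56, DKC1 and NIP7, 15 for SRM, 14 for NOP16, 11 for NME1, 10 for POLR1B, 9 for RRP1B and 8 for NOP58. The alternatives counted include settings that could hardly change a call, such as median-of-ratios scaling of values already normalized and other pseudocounts. Without the library sh3 C, whose labels disagree, 6 of the 36 genes were called with sh3 (NOP56, DKC1, NOLC1, NOP16, NIP7 and SRM) and 4 over both hairpins (NOP56, NOLC1, SRM and NME1). Over all 13885 genes tested, 2233 were called with sh3 and 1716 over both hairpins in this setting. With both directions counted, the shares of the 36 genes called were thus near those of all genes tested. The split by direction was not alike. With sh3, 6 of the 36 were lower and 0 higher, beside 1092 lower and 1141 higher among all genes tested. Over both hairpins, 3 of the 36 were lower and 1 higher, beside 828 lower and 888 higher. The difference in direction was not tested. The median of the 36 without sh3 C was -0.15 with sh3 and -0.11 over both hairpins.

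**Figure D2:**
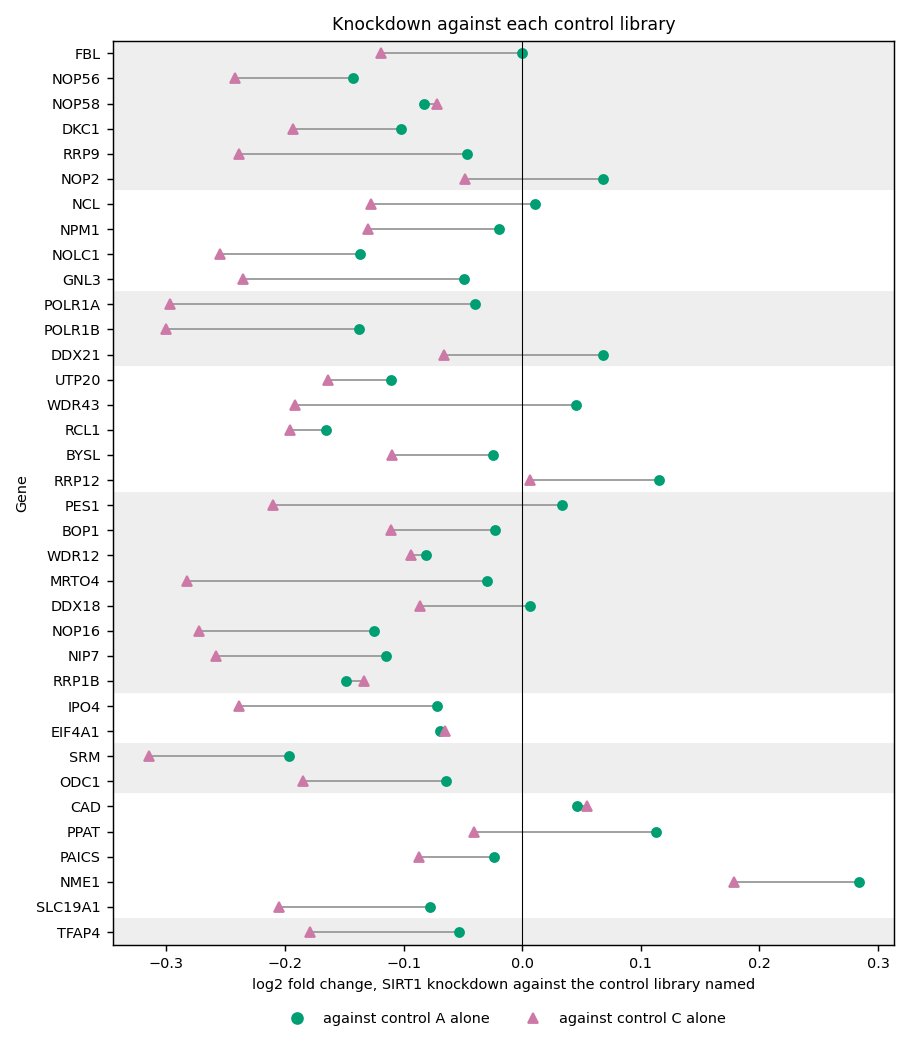
Log2 fold change of the SIRT1 knockdown (mean of sh1 and sh3) for each of the 36 genes when control A alone (green circles) or control C alone (pink triangles) serves as the control. The triangle is left of the circle for most genes, and NOP2, NCL, DDX21, WDR43, PES1, DDX18 and PPAT have the circle right of 0 and the triangle left of it.

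In what follows, normalized counts are given for libraries A, B and C of sh1, A, B and C of sh3, and A and C of the control, and each log2 fold change against control has its SE and limma adjusted p. Among the snoRNA particle genes, the box C/D scaffold pair and the H/ACA synthase gave the calls. NOP56, a core protein of box C/D particles that guide methylation, had normalized counts of 14763, 14724 and 15414 with sh1, 13216, 13881 and 13675 with sh3, and 15744 and 16869 in the controls. All sh3 values lay below all sh1 values, and these below both controls. Its log2 fold change was -0.19 ± 0.042 over both hairpins and -0.26 ± 0.047 with sh3 (SE; limma adjusted p = 0.014 and 0.0036), and -0.12 ± 0.047, adjusted p = 0.15 with sh1. NOP58, its partner in the same particle, had normalized counts of 8624, 8541 and 8884 with sh1, 8006, 8040.0 and 7833 with sh3, and 8804 and 8735 in the controls. Here sh1 spanned the controls and only the sh3 libraries lay below them, so that NOP58 passed the test with sh3 (-0.14 ± 0.042, adjusted p = 0.041) but missed it over both hairpins (-0.077 ± 0.038, adjusted p = 0.21). DKC1, the pseudouridine synthase dyskerin of box H/ACA particles, had normalized counts of 9818, 9676 and 9481 with sh1, 9096, 8842 and 8813 with sh3, and 9961 and 10609 in the controls. Groups did not overlap, with sh3 lowest and control highest, and the log2 fold change was -0.15 ± 0.041, adjusted p = 0.035 over both hairpins and -0.21 ± 0.045, adjusted p = 0.010 with sh3.

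FBL, the methyltransferase of the box C/D particle, was not called. It had normalized counts of 6036, 6335 and 6065 with sh1, 6167, 6271 and 6342 with sh3, and 6203 and 6734 in the controls, so that 3 knockdown libraries were above control A and all were below control C (log2 fold change -0.059 ± 0.045, adjusted p = 0.42). RRP9, a protein specific to the U3 snoRNA particle, lay below both controls in all 6 libraries without passing the test (-0.14 ± 0.061, adjusted p = 0.15). NOP2, a methyltransferase of large-subunit ribosomal RNA, had a log2 fold change of 0.010 with a 95% confidence interval of -0.10 to 0.12.

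NOLC1 gave the largest sh3 decrease of the 36 genes. It encodes a nucleolar phosphoprotein that binds snoRNA particles and RNA polymerase I, and had normalized counts of 10889, 10534 and 11000.4 with sh1, 8809.6, 8837 and 8921 with sh3, and 10755 and 11669.8 in the controls. The sh3 libraries lay close together and below all other libraries, while the sh1 libraries lay around control A. The log2 fold change was -0.34 ± 0.047, adjusted p = 0.00077 with sh3, a decrease of 21.0%, and -0.052 ± 0.047, adjusted p = 0.57 with sh1. The sh3 call held in all 18 alternative analyses, with a smallest change of -0.28 without control C.

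The other abundant nucleolar proteins were not called in any comparison. NCL, nucleolin, had normalized counts of 61912, 59316 and 62867 with sh1, 61169, 62729.6 and 59774 with sh3, and 60834 and 66947 in the controls. NPM1, the nucleolar chaperone nucleophosmin, had normalized counts of 46979, 48937 and 51573 with sh1, 54508, 53078 and 49947 with sh3, and 51462 and 55556 in the controls. In both genes the knockdown libraries lay on both sides of control A and below control C, with log2 fold changes of -0.059 ± 0.046, adjusted p = 0.44 for NCL and -0.075 ± 0.050, adjusted p = 0.37 for NPM1. GNL3, the nucleolar GTPase nucleostemin, lay below both controls in all 6 libraries with a log2 fold change of -0.14 ± 0.050, adjusted p = 0.086, and its fold changes against control A alone and control C alone were -0.049 and -0.24.

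RNA polymerase I was represented by its catalytic core. POLR1B, the second-largest subunit, had normalized counts of 1964, 2103 and 2136 with sh1, 1961, 2172 and 1868 with sh3, and 2235 and 2502 in the controls. All 6 knockdown values lay below both controls, and the gene was called with sh3 (-0.24 ± 0.077, adjusted p = 0.048) and narrowly missed the threshold over both hairpins (-0.22 ± 0.069, adjusted p = 0.058). POLR1A, the largest subunit, had normalized counts of 2715, 2779.9 and 2429 with sh1, 2564, 2633 and 2689 with sh3, and 2707 and 3234 in the controls. The sh1 libraries overlapped control A, the sh3 libraries were just below it, and the log2 fold change was -0.17 ± 0.072, adjusted p = 0.15. DDX21, an RNA helicase of RNA polymerase I transcription and ribosomal RNA processing, had log2 fold changes of 0.068 with sh1 and -0.066 with sh3, neither of them called.

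**Figure D3:**
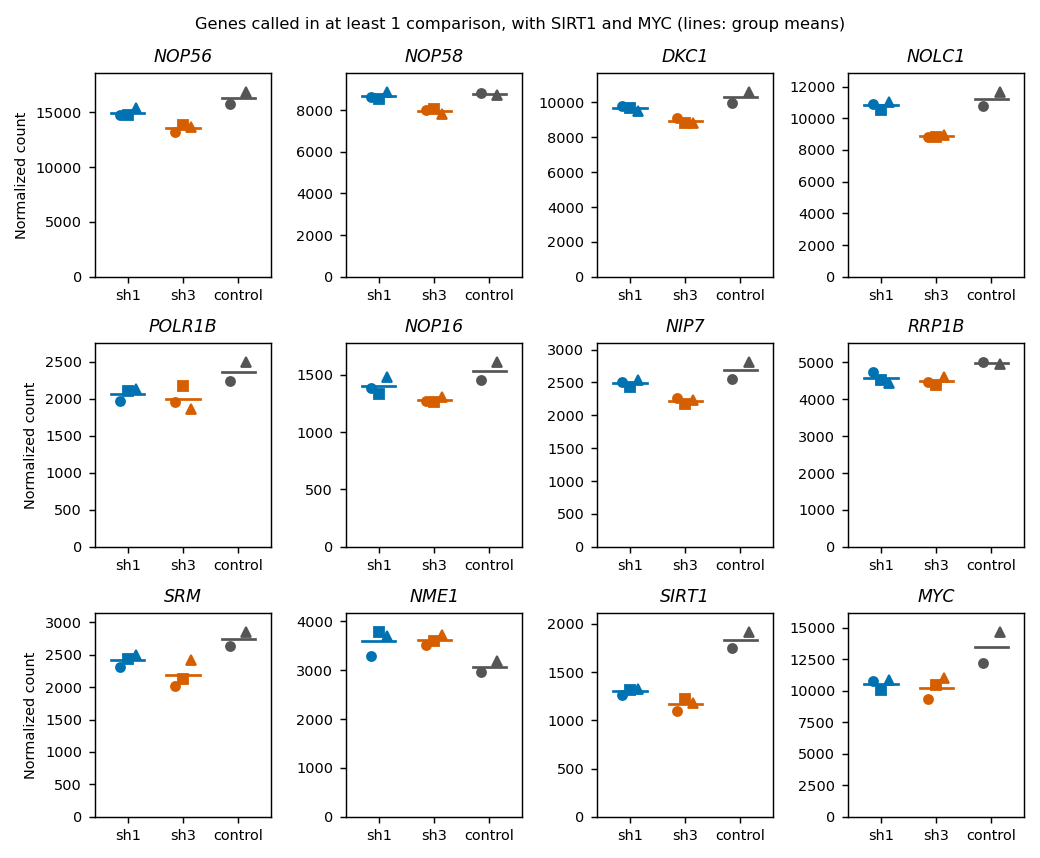
Normalized counts in each library for the 10 genes called in at least 1 comparison, with SIRT1 and MYC; the vertical axes start at 0, points are libraries (circle A, square B, triangle C) and lines are group means. The group differences are small beside the level of each gene, and the sh3 values of NOLC1 lie apart from all others.

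Assembly factors of the small subunit gave 0 calls among 5 genes in each comparison by limma. RCL1, a factor of the early pre-ribosomal RNA cleavages, came nearest with sh3 (-0.28 ± 0.092, adjusted p = 0.051), where all sh3 libraries lay below both controls. UTP20, a large scaffold of the small-subunit processome, had a log2 fold change of -0.14 ± 0.067, adjusted p = 0.20 over both hairpins, and WDR43, a processome subunit tied to transcription, had -0.073 ± 0.058, adjusted p = 0.45. BYSL, a late small-subunit factor, had a log2 fold change of -0.13 with sh3, and RRP12, an export factor, had 0.061 over both hairpins (95% confidence interval -0.082 to 0.20).

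Among 8 assembly factors of the large subunit, 3 were called with sh3 and 1 over both hairpins. NIP7, a factor of precursor processing, had normalized counts of 2505, 2429 and 2541 with sh1, 2261, 2177 and 2233 with sh3, and 2549 and 2815 in the controls. The groups did not overlap, with sh3 lowest, and the log2 fold change was -0.19 ± 0.052, adjusted p = 0.038 over both hairpins and -0.27 ± 0.058, adjusted p = 0.0090 with sh3. NOP16, a nucleolar protein known as a MYC target, had normalized counts of 1383, 1334 and 1478 with sh1, 1268, 1259 and 1303 with sh3, and 1456 and 1613 in the controls; the sh3 values lay below both controls, 1 sh1 value overlapped control A, and the sh3 log2 fold change was -0.26 ± 0.070, adjusted p = 0.023. RRP1B, a nucleolar protein of ribosomal RNA processing, had normalized counts of 4736, 4518 and 4454 with sh1, 4466, 4394 and 4598 with sh3, and 5018 and 4964 in the controls. All 6 knockdown libraries lay below both controls, and the log2 fold change was -0.15 ± 0.048, adjusted p = 0.047 with sh3 and -0.14 ± 0.043, adjusted p = 0.055 over both hairpins.

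PES1, BOP1 and WDR12, which form a complex needed for large-subunit maturation, were not called. PES1 was the gene of the 3 in which the hairpins differed most, with log2 fold changes of -0.18 ± 0.068, adjusted p = 0.083 with sh3 and 0.0072 ± 0.068, adjusted p = 0.97 with sh1. The log2 fold change over both hairpins was -0.067 for BOP1 and -0.087 for WDR12. MRTO4, which holds the place of the ribosomal stalk during assembly, had a log2 fold change of -0.16 ± 0.069, adjusted p = 0.16, and the RNA helicase DDX18 had -0.040 ± 0.049, adjusted p = 0.64. IPO4, an importin that carries ribosomal proteins and histones, had a log2 fold change of -0.16 ± 0.073, adjusted p = 0.19, and EIF4A1, the helicase of the cap-binding complex in translation initiation, had -0.067 ± 0.039, adjusted p = 0.29. EIF4A1 and RRP1B were among the 4 genes in which control C was not above control A, with NOP58 and CAD.

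Among the 36 genes, the polyamine pathway held the largest decrease over both hairpins. SRM, spermidine synthase, had normalized counts of 2314, 2434 and 2501 with sh1, 2021, 2129.6 and 2419 with sh3, and 2632 and 2856 in the controls. All 6 knockdown libraries lay below both controls, and the log2 fold change was -0.26 ± 0.069, adjusted p = 0.033 over both hairpins, -0.33 ± 0.077, adjusted p = 0.014 with sh3 and -0.18 ± 0.077, adjusted p = 0.19 with sh1. The library sh3 C was the highest of its group and overlapped sh1. ODC1, ornithine decarboxylase and the first enzyme of the pathway, had normalized counts of 8412, 8476 and 8720.4 with sh1, 8089, 8148 and 8521 with sh3, and 8776 and 9536 in the controls. It too lay below both controls in all 6 libraries, with log2 fold changes of -0.12 ± 0.045, adjusted p = 0.089 over both hairpins and -0.15 ± 0.050, adjusted p = 0.059 with sh3, and was not called.

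Of the 5 genes of nucleotide synthesis and folate uptake, 1 rose and 0 were called lower by limma. NME1, a nucleoside diphosphate kinase, had normalized counts of 3298, 3789 and 3693 with sh1, 3507, 3597 and 3721 with sh3, and 2955 and 3179 in the controls. All 6 knockdown libraries lay above both controls, with log2 fold changes of 0.23 ± 0.059, adjusted p = 0.027 over both hairpins, an increase of 17.4%, and 0.24 ± 0.066, adjusted p = 0.031 with sh3 and 0.23 ± 0.066, adjusted p = 0.069 with sh1. The NME1 call over both hairpins was lost when control A was left out (0.18, adjusted p = 0.19) and likewise for control C (0.28, adjusted p = 0.090). CAD, which carries out the first steps of pyrimidine synthesis, had normalized counts of 8211, 7954 and 7330.4 with sh1, 8139, 7978 and 8584 with sh3, and 7771 and 7725 in the controls; the sh1 libraries spanned the controls, the sh3 libraries lay above both, and the change of 0.051 ± 0.050, adjusted p = 0.56 did not pass. PPAT, the first enzyme of purine synthesis, had a log2 fold change of 0.036 and PAICS, a later enzyme of the same pathway, had -0.055, neither of them called. SLC19A1, the reduced folate carrier, had a log2 fold change of -0.14 ± 0.071, adjusted p = 0.21, and TFAP4, a basic helix-loop-helix transcription factor and MYC target, had -0.12 ± 0.059, adjusted p = 0.22.

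The direct comparison of sh1 with sh3, which does not use the control values in its fold changes, gave 1 call. NOLC1 was higher with sh1 by 0.29 ± 0.042, adjusted p = 0.0012 on the log2 scale, and called in all 18 alternative analyses. This is 2.78% of the 36 genes, beside 11.4% of all genes tested (5.61% higher and 5.83% lower with sh1). The median of the 36 was 0.049, with 8 values below 0, against -0.0015 over all genes tested. At an unadjusted p under 0.05, 11 of the 36 were higher with sh1 and 0 lower, where 26% of all genes tested passed in either direction. NOP58 (0.13 ± 0.038, adjusted p = 0.055), NOP56 (0.14 ± 0.042, adjusted p = 0.056), NIP7 (0.16 ± 0.052, adjusted p = 0.066) and PES1 (0.19 ± 0.061, adjusted p = 0.066) followed NOLC1 and missed the threshold. SIRT1 itself was higher with sh1 by 0.16 ± 0.063, adjusted p = 0.14, and MYC by 0.043 ± 0.074, adjusted p = 0.77, with a 95% confidence interval of -0.12 to 0.20.

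**Figure D4:**
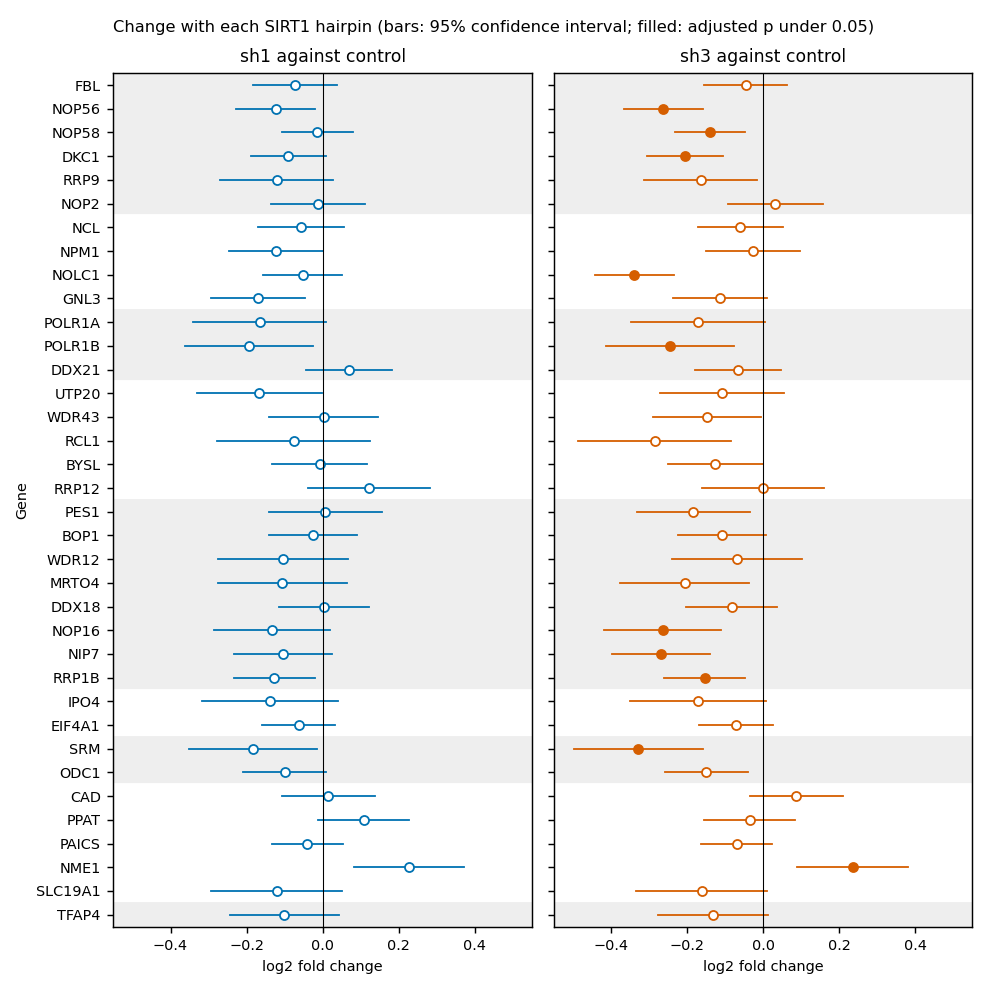
Log2 fold change of each of the 36 genes against control with sh1 (left) and sh3 (right); bars are 95% confidence intervals and filled points passed a limma adjusted p of 0.05. The right panel has 10 filled points, of which NME1 alone lies right of 0, and the left panel has 0.

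Counted by libraries that do not overlap, 11 of the 36 genes had all 6 knockdown libraries below both controls, which is 30.6% beside 11.4% of all genes tested. They were NOP56, DKC1, RRP9, GNL3, POLR1B, NIP7, RRP1B, EIF4A1, SRM, ODC1 and TFAP4. Only NME1 lay above both controls, 2.78% of the 36 beside 11.9% of all genes tested. With sh3 alone 21 genes lay below both controls and with sh1 alone 12, beside 25.1% and 18.9% of all genes tested. All sh1 libraries lay above all sh3 libraries in 14 genes and below them in 0, beside 15.2% of all genes tested on either side.

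Several of the genes carry snoRNAs inside their own bounds. By GENCODE release 29 on GRCh38, 8 of the 36 (22.2%) hold an annotated snoRNA or small Cajal body RNA on the same strand, beside 227 of 12802 tested coding genes (1.77%): NOP56, NOP58, DKC1, NCL, GNL3, WDR43, EIF4A1 and ODC1. NOP56 (chromosome 20, 2652145 to 2658393) holds 5, among them SNORD86 and SNORD57, and GNL3 (chromosome 3, 52681156 to 52694492) holds 6. This count was made after values had been seen. Of the 8 hosts, NOP56, NOP58 and DKC1 were called with sh3 and the other 5 were not, beside 27.8% of the 36 and 18.6% of all genes tested. With sh1, 0 of the 36 were called. Whether reads of these snoRNAs entered the counts of their hosts is not stated.

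Some values could be shared with near-identical copies. NME1 (chromosome 17, 51153536 to 51162428) overlaps the read-through gene NME1-NME2, listed at 402 to 498 normalized counts, and is closely related to NME2, listed at 10539.8 to 13412. NME2 itself had a log2 fold change of -0.12 ± 0.063 over both hairpins (SE, adjusted p = 0.23), so that NME1 is uncertain where reads were split between them. NPM1 has 45 pseudogenes that carry its name, of which 9 are in the table at low values, and EIF4A1 overlaps the read-through gene SENP3-EIF4A1. NIP7, NOP16, GNL3, PES1, WDR12, MRTO4 and others overlap a coding gene on the opposite strand, and although the libraries were strand-specific, no source used here says that counting was.

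The promoters of these genes were searched for the E-box CACGTG, the site bound by MYC with its partner MAX, which reads the same on both strands. RefSeq windows of 250 bases before to 50 bases after a start (GRCh38.p14) were found for 29 of the 36 genes, some with several starts. Of 39 windows 18 (46.2%) held CACGTG, against 7.26% of all 35116 windows and 9.27% of the windows of genes tested. Within 50 bases of the start the share was 41.0%, against 3.76% of windows of genes tested; this narrower window was chosen after the matches had been seen. The related motif CACGCG, searched on both strands, was in 17.9% of the windows and in 16.8% of those of genes tested. The match was in 2 of 7 called genes with a window, SRM and NME1, and in 16 of 22 others. Since the list was drawn up as MYC targets, the share describes the list, and a match is not evidence of binding in these cells. The windows of SRM and NME1 are shown because these are the called genes with a match, and those of FBL and RRP9 as examples of the more usual place at the start. They cover chr1:11059969-11060268 (minus strand, SRM), chr17:51153309-51153608 (plus strand, NME1), chr19:39846330-39846629 (minus strand, FBL) and chr3:51941855-51942154 (minus strand, RRP9), are written 5′ to 3′ on the strand of the gene, and have the E-box in capitals.
SRM: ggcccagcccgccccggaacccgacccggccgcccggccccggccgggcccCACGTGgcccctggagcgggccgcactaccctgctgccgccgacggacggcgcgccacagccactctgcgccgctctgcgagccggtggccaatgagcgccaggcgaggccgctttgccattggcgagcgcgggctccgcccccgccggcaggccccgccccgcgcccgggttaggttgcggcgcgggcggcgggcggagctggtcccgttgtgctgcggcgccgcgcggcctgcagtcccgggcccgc
NME1: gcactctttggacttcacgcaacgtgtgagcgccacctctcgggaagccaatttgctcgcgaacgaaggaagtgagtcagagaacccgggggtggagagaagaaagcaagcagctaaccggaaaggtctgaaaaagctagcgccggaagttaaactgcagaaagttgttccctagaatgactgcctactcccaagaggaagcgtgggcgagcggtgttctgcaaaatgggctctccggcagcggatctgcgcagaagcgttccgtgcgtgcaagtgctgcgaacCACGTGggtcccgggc
FBL: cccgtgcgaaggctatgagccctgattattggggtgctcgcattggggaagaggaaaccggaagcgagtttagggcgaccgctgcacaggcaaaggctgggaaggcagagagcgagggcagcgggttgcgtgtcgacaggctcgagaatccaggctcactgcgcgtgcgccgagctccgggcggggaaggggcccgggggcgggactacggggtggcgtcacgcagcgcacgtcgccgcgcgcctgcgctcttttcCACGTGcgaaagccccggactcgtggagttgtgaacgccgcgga
RRP9: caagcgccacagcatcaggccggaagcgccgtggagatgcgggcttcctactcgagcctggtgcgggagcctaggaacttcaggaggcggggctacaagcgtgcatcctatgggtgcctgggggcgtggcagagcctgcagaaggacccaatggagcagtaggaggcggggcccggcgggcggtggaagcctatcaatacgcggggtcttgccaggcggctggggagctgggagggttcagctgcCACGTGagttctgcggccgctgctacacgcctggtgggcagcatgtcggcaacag

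In these sequences the E-box of SRM begins at position -199 from the start, and those of NME1, FBL and RRP9 at 34, 6 and -5. SRM fell and NME1 rose, while FBL and RRP9 were not called, and all hold the same letters.

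**Figure D5:**
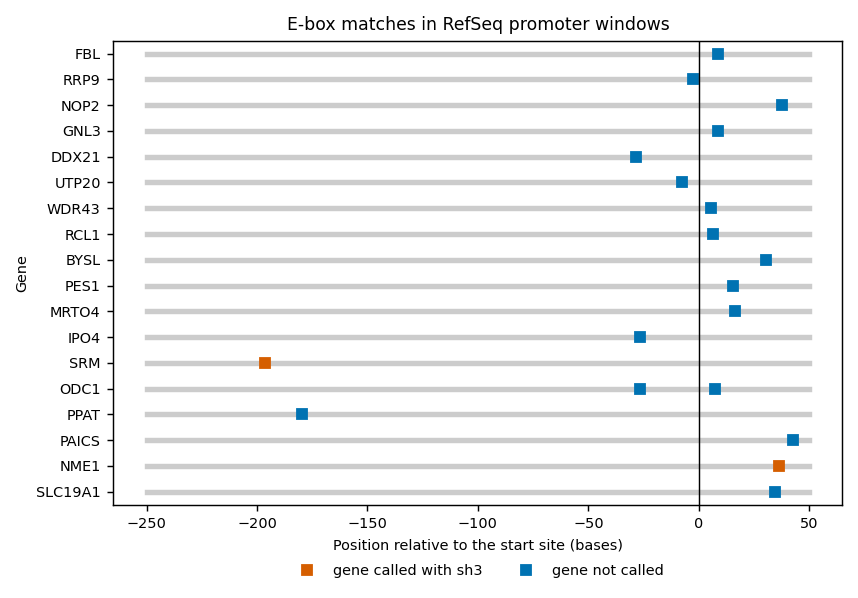
Position of each CACGTG match relative to the start site in bases, for the 18 genes with a match in a RefSeq window (grey bars, 250 bases before to 50 after the start); orange squares are genes called with sh3 and blue squares genes not called. All matches lie within 50 bases of the start except those of SRM and PPAT.

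Other genes of ribosome synthesis, taken from lists that do not include the 36, are set beside the 6.55% of all genes tested that were called higher over both hairpins and the 6.19% called lower (12.7% together), with values as log2 fold changes. Of 12 other snoRNA particle genes 0 rose and 2 fell, NHP2 (-0.31 ± 0.065, adjusted p = 0.010) and GAR1 (-0.18 ± 0.052, adjusted p = 0.041), both partners of DKC1 in the H/ACA particle; the median of the list was -0.066. Of 47 other small-subunit factors 2 rose and 3 fell (10.6%), a share near that of all genes tested, with RRP36 at -0.30 ± 0.050, adjusted p = 0.0039 and the helicase DDX10 at 0.29 ± 0.050, adjusted p = 0.0042. Of 46 other large-subunit factors 1 rose and 2 fell (6.52%), with PPAN at -0.26 ± 0.058, adjusted p = 0.015 and LAS1L at 0.16 ± 0.044, adjusted p = 0.035. The medians of these subunit lists were -0.037 and -0.010, beside -0.10 for the 36 genes and -0.0022 for all genes tested. The difference between lists was not tested. These medians depended on the control used. Without control C they were 0.013 and 0.0074, and 0.0016 for the other snoRNA particle genes, beside -0.048 for the 36. Without control A they were -0.074 and -0.058, and -0.11 for the other snoRNA particle genes, beside -0.17 for the 36.

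Of 19 other genes of RNA polymerase I 0 rose and 3 fell. The polymerase I subunit CD3EAP (POLR1G) had the largest decrease over both hairpins among the genes named here, with normalized counts of 359, 387 and 295 with sh1, 262, 236 and 278 with sh3, and 497 and 479 in the controls, a log2 fold change of -0.71 ± 0.11, adjusted p = 0.0032. Its groups did not overlap, with sh3 lowest and control highest. POLR2H, a subunit shared by the nuclear polymerases, had -0.21 ± 0.058, adjusted p = 0.033. Of 15 nuclease genes of ribosomal RNA processing 1 rose, EXOSC10 (0.17 ± 0.045, adjusted p = 0.028).

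The lists of the supply pathways are short, and calls in both directions were also found over all genes tested (6.55% higher and 6.19% lower), so that nothing particular to them is read from their counts. Of 25 other nucleotide and folate enzymes 3 rose and 2 fell, with the ribonucleotide reductase subunit RRM2 at 0.25 ± 0.040, adjusted p = 0.0032. PRPS2, which makes the ribose precursor of nucleotides, had normalized counts of 5027, 5168 and 5018 with sh1, 3023, 2820.0 and 3009 with sh3, and 5411 and 5471 in the controls. It was near the controls with sh1 and far below them with sh3, with a log2 fold change of -0.49 ± 0.044, adjusted p = 8.7e-05 over both hairpins. Of 12 other polyamine and hypusine genes tested 2 rose and 1 fell: AMD1, which supplies the aminopropyl groups that SRM uses, fell (-0.27 ± 0.046, adjusted p = 0.0042), while SAT1, which acetylates polyamines for export and breakdown, rose (0.26 ± 0.064, adjusted p = 0.024). Of 21 other translation initiation genes 3 rose and 2 fell, with EIF4EBP1 at -0.37 ± 0.077, adjusted p = 0.011 and EIF4G3 at 0.19 ± 0.044, adjusted p = 0.016. Of 10 tested genes of the MYC network, MYC fell and 0 rose. Of the genes named from these lists other than MYC, DDX10, CD3EAP, PRPS2 and RRM2 were called in all 17 alternatives, and the other 11 missed the threshold without control C.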

How the data were processed

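Per the labels' protocols, RNA of DND41 cells was sequenced from strand-specific libraries after 72 h of doxycycline. The deposited signal is a normalized count for each gene symbol. Kallisto 0.44.0, DESeq and hg38 are named in the submitters' processing notes. No source used here gives the transcript annotation or says how transcripts were summed to genes. Since values are not whole numbers, no count test was used.

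The groups follow the titles. Genes were kept if they averaged 10 or more, which left 13885 and removed 4248 rows, and log2(value + 1) was analysed, a scale that understates changes of low genes. Group means of the 3 groups were fitted with limma 3.58.1 (R 4.3.3), with 5 residual degrees of freedom and a variance prior that followed the mean. Tests were two-sided with Benjamini-Hochberg adjustment over the 13885 genes at 0.05. The comparisons were the mean of sh1 and sh3 against control, each hairpin against control, and sh1 against sh3. The procedure was tested on simulated data. Alternatives were pseudocounts of 0.5 and 5, no filter, a mean of at least 50, TMM, quantile and median-of-ratios scaling, no variance trend, a block for the library letter, only the groups compared, and leaving out each library with the same 13885 genes. When a control is left out, the remaining one is assumed to vary like the other groups.

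The 36 genes, the other lists and the tests were chosen with earlier results of these data known. Values per library are given for every gene called and for NCL, NPM1, FBL, POLR1A, POLR1B, ODC1 and CAD, and for each other list the 2 called genes with the smallest p over both hairpins are named. CD3EAP and PRPS2 were given per library after their values were seen, and the rule allowed more promoters than the 4 shown, which were picked after the matches were seen. Coordinates are from GENCODE release 29 on GRCh38 and promoter windows from RefSeq on GRCh38.p14.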

Additional observations from a re-analysis of the deposited data

Results flagged for a closer look

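NOLC1 differed between the SIRT1 hairpins by a test of that difference. It was higher with sh1 than with sh3 by 0.29 ± 0.042 on the log2 scale (SE, limma adjusted p = 0.0012), and all 3 sh1 libraries lay above all 3 sh3 libraries, as in 15.2% of all genes tested. The difference is between constructs of 1 gene, and its cause was not tested. SIRT1 differed between the same groups by 0.16 ± 0.063 (adjusted p = 0.14).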

How the results depend on the processing

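No named gene changed sign between a call and an alternative. Pseudocounts of 0.5 and 5, TMM scaling and median-of-ratios scaling left the same calls among the 36 genes in all 4 comparisons. Most of these settings could hardly change a call. The values were already normalized, and median-of-ratios scaling again gave 1768 genes called over both hairpins, as in the main fit. The pseudocounts are small beside the values of the 36 genes, of which the lowest was 536 (RCL1 with sh3). Without a filter on low values, NOP58, POLR1B and RRP1B were not called with sh3. Without the variance trend, the genes called over all 13885 fell in number to 744 over both hairpins, 236 with sh1, 1531 with sh3 and 968 between sh1 and sh3; of the 36, 0 were then called lower and 0 higher over both hairpins, and 4 lower and 0 higher with sh3. With a mean of at least 50, 8 of the 36 were called lower over both hairpins and 3 higher with sh1 than with sh3. With quantile scaling 0 were called higher with sh3. With only the groups compared, 462 genes were called with sh1, and 2 of the 36 were higher with sh1 than with sh3.

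Leaving out 1 library at a time, the genes called over both hairpins numbered 339 to 1898, and of the 36 between 0 and 6 were lower and 0 to 1 higher. With sh1 the ranges were 159 to 782, 0 to 1 lower and 0 to 1 higher, where NME1 was called without sh1 A and GNL3 without control A. With sh3 they were 860.0 to 2931, 1 to 14 lower and 0 to 1 higher. Between sh1 and sh3 they were 925 to 1770.0, 1 to 2 of the 36 higher and 0 lower. Over both hairpins, 2 of the 36 were called lower without sh1 B and without sh3 A, 3 without sh3 B and without sh3 C, and 0 without control C. With sh3, 4 were called without sh3 A and 6 without sh3 B and without sh3 C.

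For libraries of different groups that share a letter, the correlations of their deviations from the group means were between -0.14 and 0.092. For libraries with different letters they were between -0.092 and 0.22. With so few libraries the deviations within a group cancel each other, so these correlations cannot show whether the letter marks a pairing. With a replicate block for the letter, 549 genes were called with sh1, 4 of the 36 were lower over both hairpins and 2 were higher with sh1 than with sh3. With 2 control libraries, each difference from control rests on the mean of a pair of libraries on that side, while the spread was estimated from the 3 groups together. The depth in reads is not known from normalized values.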
